A study of Mus musculus with 8 samples.

Results

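Rpgrip1, Ang, Ttc5, Ccnb1ip1, Chd8, Ppp1r3e and Ap5m1 lie within a stretch of mouse chromosome 14 and were measured in trigeminal ganglia by 19 of the 34945 probe sets with a single gene symbol on an Affymetrix mouse expression array, and are 7 of its 18193 genes. They were chosen by the size of their group differences in these same arrays, so their values are given below as a description without a p-value. Counts of their probe sets that pass a test are not evidence of a difference. Trigeminal ganglia contain the neurons that carry sensation from the face, with their glia. The groups were 4 arrays of mice whose genotype is labelled daDREAM transgenic, all of them titled with the tag tg16, and 4 arrays of control mice. All animals are labelled adult males of a C57B/6XCBA background. DREAM is a calcium-binding repressor of transcription, encoded by Kcnip3, and daDREAM is a mutant form made to stay active. The sources used here give neither the promoter that drives the transgene, nor its site of insertion, nor the chromosome 14 alleles of the mice. Nor do they say whether an array holds 1 animal or a pool, so the spread between arrays may be partly technical.

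The 7 genes do not form a pathway. RPGRIP1 anchors the retinitis pigmentosa GTPase regulator at the connecting cilium of photoreceptors, and its loss causes retinal degeneration. Angiogenin, the product of Ang, is a secreted ribonuclease that cuts transfer RNA under stress and promotes vessel growth and neuron survival. TTC5 is a cofactor of p53 that also takes part in the feedback control of tubulin messenger RNA, CCNB1IP1 is a ubiquitin ligase needed for meiotic crossing over, CHD8 is a chromatin remodeller, PPP1R3E targets protein phosphatase 1 to glycogen, and AP5M1 is the medium subunit of the AP-5 adaptor of late endosomes. An array of this type reads a gene through 1 or more probe sets, each a group of short probes against one part of its transcripts. Names ending in _a_at mark probe sets shared by transcript variants of a gene, those in _s_at match several transcripts, and those in _x_at hold probes that can also match other sequences.

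The values are log2 expression values made by the robust multi-array average (RMA), and differences are daDREAM minus control with the SE of the fit. Values of different probe sets are not compared as levels. A group mean below 6 is called near background here, and a fold change against such a group is a lower bound at best. The array medians ran from 7.09 to 7.13, and arrays correlated with each other at 0.983 to 0.996. Sensory neuron markers, 7 of 8 measured, averaged 11.04 to 11.22 on daDREAM arrays and 11.05 to 11.29 on control arrays, and 5 of 7 markers of satellite glia and Schwann cells averaged 12.53 to 12.79 on daDREAM arrays and 12.49 to 12.61 on control arrays. Central nervous system markers, 6 of 6 measured, were apart between groups, at 10.13 to 10.71 on daDREAM arrays and 9.07 to 10.07 on control arrays. All 6 differences were above 0, and 1 passed, that of the astrocyte water channel Aqp4 at 0.76; Gfap, the astrocyte filament, differed by 1.59 without overlap and did not pass. The 6 skeletal muscle markers averaged 7.38 to 7.45 on daDREAM arrays, against 9 and 8.19 on control replicates 1 and 3 and 7.43 and 7.32 on control replicates 2 and 4, with 0 past the test. The part of these markers in the differences given below was not tested. Xist, which is transcribed in female cells, read 11.51 on daDREAM replicate 4 and 10.20 and 11.72 on control replicates 3 and 4, against 6.10 to 6.49 on the other 5 arrays, so 3 arrays carried female signal against the label. The Y-linked gene Eif2s3y read 4.46 on daDREAM replicate 4. It read 8.40 on control replicate 3 and 7.16 on control replicate 4, which thus carried both signals, against 8.74 to 9.04 on the other 5 arrays. The pituitary hormone gene Gh was brightest on daDREAM replicates 3 and 4 (12.50 and 13.43) and control replicate 3 (11.15). Results are also given without these arrays where that changes them.

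Rpgrip1 had the largest difference of the 7 genes, and only 1 of its 4 probe sets showed it. Probe set 1421144_at read 5.69, 6.47, 6.02 and 6.15 on daDREAM arrays 1 to 4, against 10.63, 10.64, 10.67 and 10.89 on control arrays 1 to 4. In whole ganglia, fewer cells of a type and less RNA per cell cannot be told apart. The difference is moreover that of 1 probe set and is not given as one of all Rpgrip1 RNA. The sources used here do not show which part of the transcripts this probe set reads. The groups were separated by an empty interval of 4.16 log2 units, and no array lay between them. The mean was 6.08 ± 0.32 in daDREAM ganglia and 10.71 ± 0.12 in control ganglia (SD, n = 4 each), a difference of -4.62 (SE 0.14) or 24.7-fold lower in daDREAM ganglia. By size it ranked 3 among all 45037 probe sets.

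The other Rpgrip1 probe sets did not share this pattern. Probe set 1431357_a_at read 7.16, 6.88, 6.82 and 7.12 on daDREAM arrays and 6.84, 6.92, 6.89 and 7.06 on control arrays, a difference of 0.07 (SE 0.09). Probe set 1454231_a_at differed by -0.26 (SE 0.10) and 1451785_at by 0.05 (SE 0.07), with both group means near background. In all 3 the groups overlapped.

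**Figure D1:**
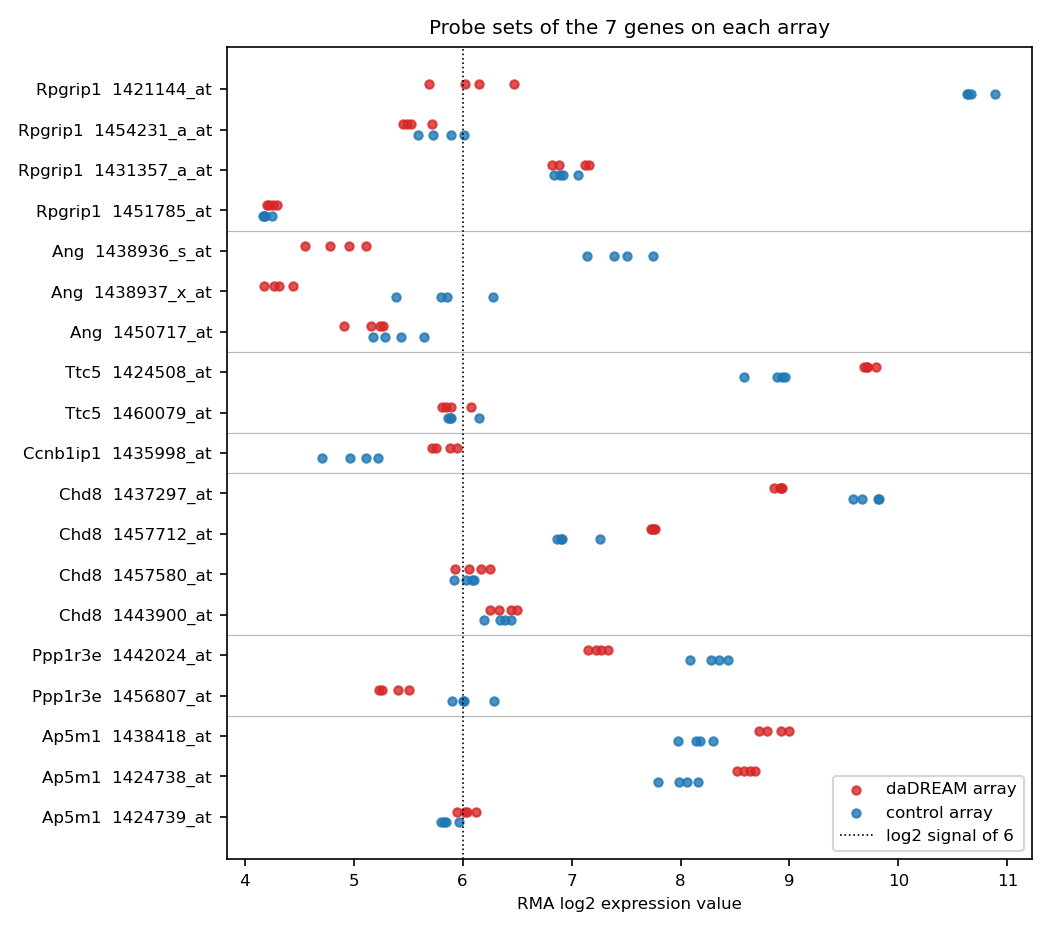
RMA log2 expression values (x axis) of the 19 probe sets of the 7 genes (rows, grouped by gene); each point is 1 array, daDREAM in the upper and control in the lower line of a row, and the dotted line marks a log2 value of 6. The control points of Rpgrip1 1421144_at lie between 10.63 and 10.89, far to the right of the daDREAM points, while those of the other 3 Rpgrip1 probe sets overlap with them.

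Ang was lower at 2 of 3 probe sets. Probe set 1438936_s_at read 4.96, 4.78, 5.11 and 4.55 on daDREAM arrays, against 7.51, 7.75, 7.39 and 7.14 on control arrays. Every daDREAM value lay at least 2.03 log2 units under the lowest control value. The difference was -2.60 (SE 0.14), at least 6.05-fold lower in daDREAM ganglia, whose mean of 4.85 ± 0.24 was near background, against 7.45 ± 0.25 in control ganglia (SD, n = 4 each).

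Probe set 1438937_x_at of Ang read 4.31, 4.18, 4.27 and 4.44 on daDREAM arrays and 5.86, 6.28, 5.80 and 5.39 on control arrays. It differed by -1.53 (SE 0.15), again without overlap, and both means were near background. Probe set 1450717_at read 4.91 to 5.27 on daDREAM arrays and 5.18 to 5.65 on control arrays, which overlapped, and differed by -0.24 (SE 0.11). The 3 Ang probe sets thus pointed the same way, but the probe sets with clear separation are the pair whose suffixes mark probes that can match more than 1 transcript or sequence.

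Rnase4, a secreted ribonuclease of the same family, overlaps Ang in the RefSeq annotation and is its next measured gene. It read 9.49, 9.21, 9.04 and 9.19 on daDREAM arrays and 9.10, 9.30, 8.99 and 9.01 on control arrays. The groups overlapped, and the difference of 0.13 (SE 0.11) did not pass (limma adjusted p = 0.532 over all probe sets).

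RefSeq promoter sequences (assembly GRCm38.p6, 250 bases before to 50 after a start site) were found for 6 of the 7 genes. They are shown for the genes with the largest negative differences and for Ttc5 and Ccnb1ip1, which are neighbours with no measured gene between them and were both higher. DREAM binds a downstream regulatory element with the core GTCA, and capitals mark each GTCA, read on either strand (TGAC on the printed one).
Rpgrip1 promoter, chr14:52110653-52110952, plus strand: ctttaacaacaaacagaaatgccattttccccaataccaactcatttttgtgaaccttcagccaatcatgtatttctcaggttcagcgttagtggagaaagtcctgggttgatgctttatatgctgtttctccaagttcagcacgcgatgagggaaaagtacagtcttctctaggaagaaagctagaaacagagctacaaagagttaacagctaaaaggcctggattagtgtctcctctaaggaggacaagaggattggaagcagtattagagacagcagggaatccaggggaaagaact
Ang promoter, chr14:51090827-51091126, plus strand: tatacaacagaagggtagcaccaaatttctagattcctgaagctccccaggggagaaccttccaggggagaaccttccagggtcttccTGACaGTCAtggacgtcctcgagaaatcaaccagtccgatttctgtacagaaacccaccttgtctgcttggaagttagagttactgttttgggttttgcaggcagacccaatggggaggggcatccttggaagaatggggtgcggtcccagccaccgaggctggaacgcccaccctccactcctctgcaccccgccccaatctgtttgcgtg
Ttc5 promoter, chr14:50785471-50785770, minus strand: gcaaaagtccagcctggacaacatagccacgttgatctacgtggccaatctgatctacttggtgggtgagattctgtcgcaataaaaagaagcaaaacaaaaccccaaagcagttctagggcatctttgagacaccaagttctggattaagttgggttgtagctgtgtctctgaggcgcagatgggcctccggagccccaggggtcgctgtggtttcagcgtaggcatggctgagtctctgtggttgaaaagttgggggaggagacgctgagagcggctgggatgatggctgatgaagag
Ccnb1ip1 promoter, chr14:50795679-50795978, minus strand: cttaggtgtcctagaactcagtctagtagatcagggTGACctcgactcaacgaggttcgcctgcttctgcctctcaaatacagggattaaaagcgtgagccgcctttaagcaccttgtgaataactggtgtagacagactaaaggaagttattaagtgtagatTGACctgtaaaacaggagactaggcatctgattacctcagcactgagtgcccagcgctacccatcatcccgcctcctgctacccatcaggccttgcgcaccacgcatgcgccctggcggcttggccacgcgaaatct

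The Ang sequence is also the first of the Rnase4 promoters in the table, letter for letter, although only Ang showed separated groups. It held 2 matches of GTCA, 1 on each strand. The Ccnb1ip1 promoter held 2 matches, both on the opposite strand, the Chd8 promoter 1 and the Ap5m1 promoter 3, while those of Rpgrip1 and Ttc5 held 0. Of all 32851 promoters of this length, 85.2% held GTCA at least once, with a median of 2. The longer elements TGACGTCA and TGANTCA, the first of which contains GTCA on both strands and the second on 1 strand where N is C or G, were in 0 of the 6 promoters, against 1.8% and 7.8% of all promoters. These counts describe letters in a window and say nothing of binding.

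Ppp1r3e was lower at both of its probe sets. Probe set 1442024_at read 7.27, 7.33, 7.15 and 7.22 on daDREAM arrays, against 8.35, 8.44, 8.28 and 8.09 on control arrays. The groups were apart by 0.76, and the difference was -1.05 (SE 0.09), 2.07-fold lower in daDREAM ganglia. Probe set 1456807_at read 5.23, 5.41, 5.51 and 5.26 on daDREAM arrays, near background, against 6.29, 6.00, 6.01 and 5.90 on control arrays, a difference of -0.70 (SE 0.10). Of the 6 members with more than 1 probe set, Ppp1r3e was the only one whose probe sets were all separated between groups.

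Ttc5, Ccnb1ip1 and Ap5m1 were higher in daDREAM ganglia. Ttc5 probe set 1424508_at read 9.79, 9.71, 9.68 and 9.71 on daDREAM arrays, against 8.89, 8.93, 8.58 and 8.96 on control arrays, 1.84-fold higher (difference 0.88, SE 0.09). Control replicate 3 was the lowest array and the groups did not overlap, with an SD of 0.05 in daDREAM ganglia and 0.18 in control ganglia (n = 4 each). The other Ttc5 probe set, 1460079_at, had overlapping groups near background in both and differed by -0.04 (SE 0.09).

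Ccnb1ip1 had a single probe set, which read 5.88, 5.95, 5.76 and 5.72 on daDREAM arrays and 5.11, 4.71, 4.97 and 5.22 on control arrays. Both group means, 5.83 ± 0.11 in daDREAM ganglia and 5.0 ± 0.22 in control ganglia (SD, n = 4 each), were near background, and the difference was 0.83 (SE 0.11) without overlap. Markers of male germ cells, in which this ligase acts, averaged 5.76 to 6.03 on daDREAM arrays and 5.69 to 5.99 on control arrays (5 of 5 measured, 0 past the test).

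For Ap5m1, probe set 1438418_at read 8.92, 9, 8.79 and 8.72 on daDREAM arrays, against 8.18, 8.14, 8.30 and 7.98 on control arrays (difference 0.71, SE 0.09). Probe set 1424738_at read 8.52, 8.58, 8.64 and 8.68 on daDREAM arrays, against 7.99, 7.79, 8.06 and 8.16 on control arrays (difference 0.61, SE 0.09). Both were thus higher on every daDREAM array than on any control array, by 1.63-fold and 1.52-fold in the means. The third, 1424739_at, was near background in control ganglia and differed by 0.17 (SE 0.07), and 1 control array reached into the daDREAM range.

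Chd8 was the only one of the 7 genes with separated groups in opposite directions. Probe set 1437297_at read 8.86, 8.93, 8.91 and 8.92 on daDREAM arrays, against 9.58, 9.82, 9.81 and 9.67 on control arrays, 1.76-fold lower in daDREAM ganglia (difference -0.82, SE 0.08). Probe set 1457712_at read 7.76, 7.74, 7.77 and 7.73 on daDREAM arrays, against 6.91, 6.90, 7.26 and 6.87 on control arrays, 1.70-fold higher in daDREAM ganglia (difference 0.77, SE 0.09). Both kept their signs under every rescaling and with each array left out. With groups that do not overlap, leaving out an array cannot turn a sign, so this is no support for either direction. The other 2, 1457580_at and 1443900_at, overlapped between groups and differed by 0.07 (SE 0.09) and 0.04 (SE 0.08). No single direction can therefore be given for the Chd8 messenger RNA.

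**Figure D2:**
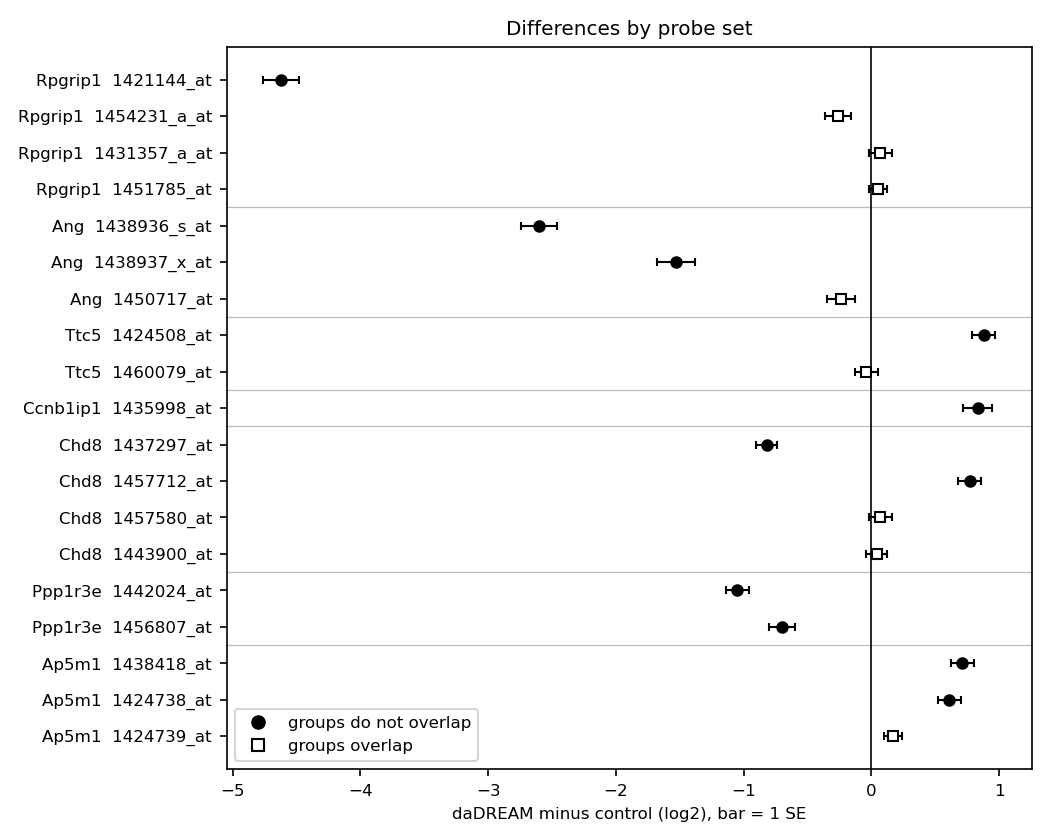
Difference of means, daDREAM minus control (x axis, log2), for the 19 probe sets (rows, grouped by gene), with bars of 1 SE; filled circles have groups that do not overlap and open squares have groups that do. The differences run from -4.62 to 0.88, and the filled circles of Chd8 lie on opposite sides of 0 at -0.82 and 0.77.

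In all, 11 of 19 member probe sets passed the limma test (adjusted p under 0.05 over all probe sets), 5 higher and 6 lower, where 2.74% of all 45037 probe sets passed, 1.42% as higher and 1.32% as lower. The same 11 had groups that did not overlap, where 11.0% of all probe sets did. Since these differences chose the genes, nothing is read from the counts. The smallest difference among the 11 was 0.61 in size and the largest among the other 8 was 0.26. Without the 3 arrays with female signal all 11 passed. Without the 3 arrays brightest for Gh, 9 of the 11 passed, with Ppp1r3e 1456807_at and Ap5m1 1424738_at lost. An unequal-variance test per probe set called 3, of Rpgrip1, Ang and Ppp1r3e.

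Directly beside Rpgrip1, the gene Supt16 was higher in daDREAM ganglia at both of its probe sets. SUPT16 is the large subunit of FACT, a chaperone that loosens nucleosomes for transcription, and its gene overlaps Rpgrip1 in the RefSeq annotation and lies between Rpgrip1 and Chd8. Probe set 1449578_at read 8.76, 8.72, 8.74 and 8.83 on daDREAM arrays, against 6.02, 6.34, 6.74 and 6.69 on control arrays. It rose by 2.32 (SE 0.14, limma adjusted p = 1.86e-06), or 4.98-fold, and the daDREAM SD of 0.05 was smaller than the control SD of 0.34 (n = 4 each).

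The brighter Supt16 probe set, 1419741_at, read 10.70, 10.80, 10.83 and 10.73 on daDREAM arrays and 10.33, 9.85, 9.51 and 10.12 on control arrays (difference 0.81, SE 0.14, limma adjusted p = 0.00944). On the other side of Rpgrip1, Hnrnpc, a nuclear protein that binds nascent messenger RNA, rose by 0.51 (SE 0.09, limma adjusted p = 0.00681) at 1418693_at, with 10.24, 10.08, 10.18 and 10.03 on daDREAM arrays and 9.80, 9.63, 9.49 and 9.57 on control arrays. Its other 2 probe sets differed by 0.11 and 0.15 and did not pass.

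**Figure D3:**
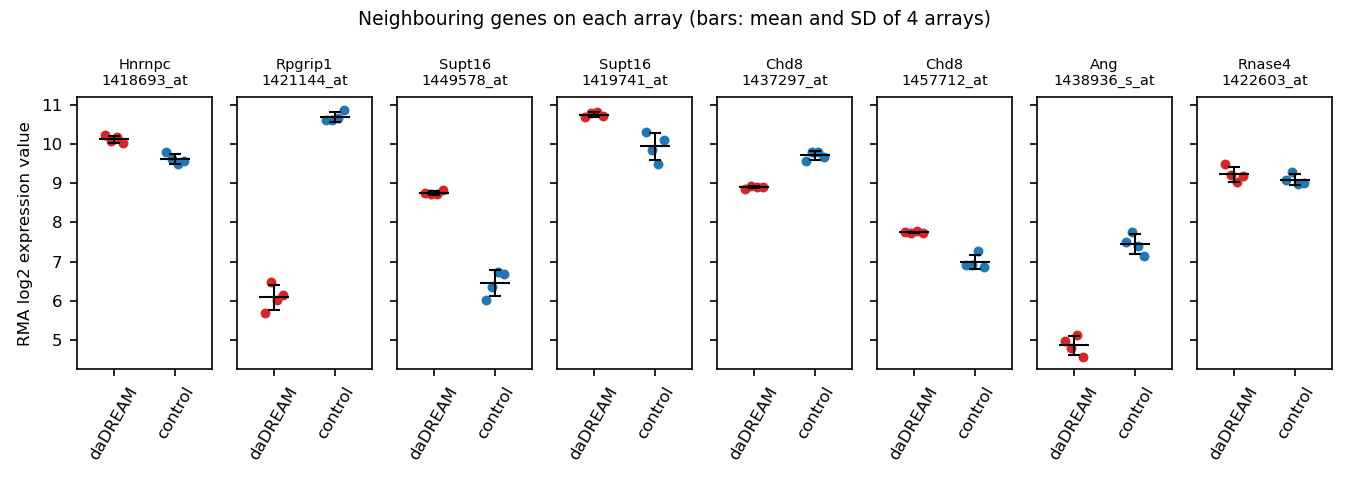
RMA log2 expression values (y axis) of probe sets of genes that follow each other on chromosome 14, Hnrnpc to Chd8 and Ang to Rnase4; points are arrays, daDREAM left and control right in each panel, and bars are the mean and SD of 4 arrays. Rpgrip1 at 1421144_at is lower in daDREAM and its neighbour Supt16 higher at both probe sets, Chd8 differs in both directions, and the Rnase4 groups overlap beside those of Ang.

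The nearest measured genes of the remaining members mostly did not pass. Beyond Chd8, 5 probe sets of Rab2b, a small GTPase of membrane traffic, differed by -0.06 to 0.22. Beside Ang, Rnase10 differed by -0.14 (limma adjusted p = 0.338). Beside Ttc5, the olfactory receptor gene Olfr749 differed by -0.13 near background, and beside Ccnb1ip1 the DNA repair gene Parp2 differed by 0.03 (adjusted p = 0.864). Beside Ap5m1, 2 probe sets each of Exoc5, of the exocyst, and Naa30, an amino-terminal acetyltransferase, differed by -0.18 to 0.18. Beside Ppp1r3e, Homez differed by 0.12, and of 4 probe sets of Bcl2l2, a survival factor of the BCL2 family, 1451029_at passed at 0.33 (limma adjusted p = 0.0472).

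Between Ap5m1 and Ppp1r3e lie 63 other measured genes with 100 probe sets. Of these, 10 passed (8 higher, 2 lower), a share of 10% beside the 2.74% of all probe sets, and 22 had groups that did not overlap, beside 11.0% of all probe sets. The median difference was -0.03, beside -0.01 over all probe sets, and the median size was 0.14, beside 0.10. The stretch was known from earlier results of these data as one with many differences, so these counts are no independent evidence of it. Among the genes that passed, Gm26782, a long noncoding RNA gene that overlaps Tep1 and lies between Ccnb1ip1 and Ang, read 5.64, 6, 6.2 and 6.41 on daDREAM arrays, against 8.60, 8.89, 8.77 and 8.70 on control arrays. It fell by 2.68 (SE 0.14, limma adjusted p = 6.33e-07), 6.4-fold, a size like that of Ang.

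The other genes of the stretch that passed had smaller differences. Rem2, a small GTPase that inhibits calcium channels, rose at both probe sets, by 0.43 (adjusted p = 0.0429) and 0.60 (adjusted p = 0.0254, limma). Acin1, a nuclear protein of messenger RNA splicing, rose by 0.44 at 1 of 2 probe sets, the purine enzyme gene Pnp by 0.38 and the mitochondrial gene Mettl17 by 0.34 at 1 of 3, where another read -0.16. Of these, 1 Rem2 probe set (1448860_at), Acin1, Pnp and Mettl17 did not pass after renewed quantile normalization (limma adjusted p = 0.0651, 0.0661, 0.0994 and 0.0659), and each lost its call in more alternatives than it kept it. The amino acid transporter Slc7a8 fell by 0.49 (limma adjusted p = 0.00475). The count of 10 became 5 without control replicate 4 or daDREAM replicate 2, 6 without daDREAM replicate 1 or 4, 5 without the arrays with female signal and 2, of Gm26782 and Supt16, without the arrays brightest for Gh.

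**Figure D4:**
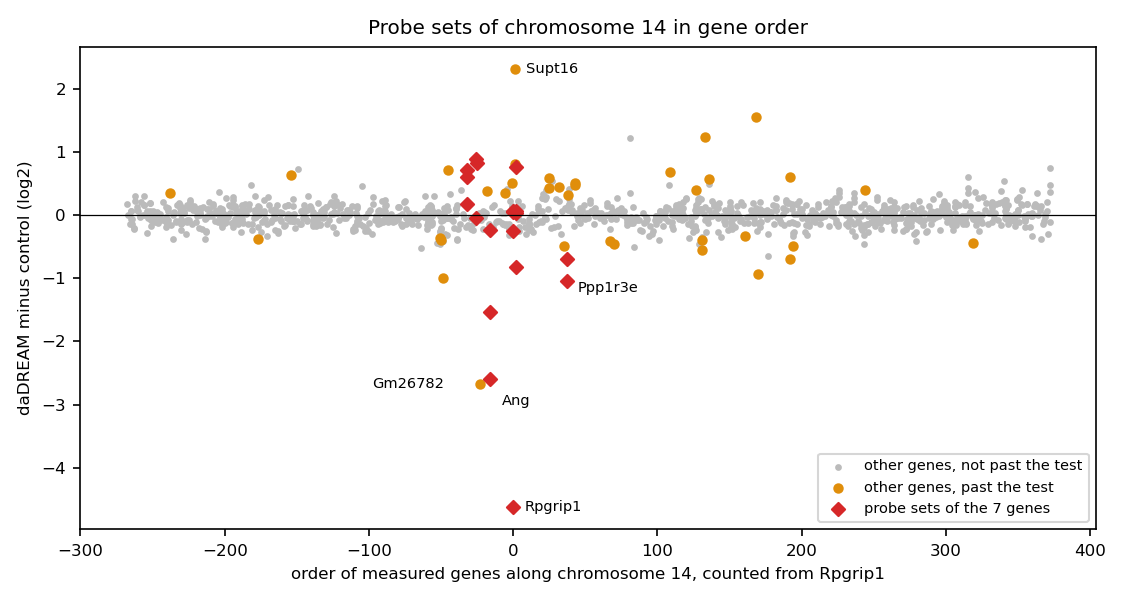
Difference of means, daDREAM minus control (y axis, log2), of every probe set with a single gene on chromosome 14, placed by the order of its gene counted from Rpgrip1 (x axis, 641 measured genes); red diamonds are the 7 genes, orange points other genes past the limma test and grey points the rest. Rpgrip1 at -4.62, Gm26782 at -2.68, Ang at -2.60 and Supt16 at 2.32 stand farthest from 0.

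Along the whole chromosome, in blocks of 50 measured genes, the 3 blocks that hold the members had 9.47%, 13.6% and 11.8% of their probe sets past the test. Leaving out the members gave 5.62%, 9.09% and 9.46%. The 3 blocks after them had 3.85%, 5.62% and 3.26%, and each of the other 7 blocks had at most 1.08%. The 50 measured genes before the stretch had 4 of 92 probe sets past the test (1 higher, 3 lower) and the 50 after it had 5 of 77 (3 higher, 2 lower). These 9 became 2 without daDREAM replicate 3, 3 without control replicate 1, 4 without daDREAM replicate 2 and 5 without control replicate 2. Over all of chromosome 14 outside the stretch, these flanks included, the share was 2.37%.

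**Figure D5:**
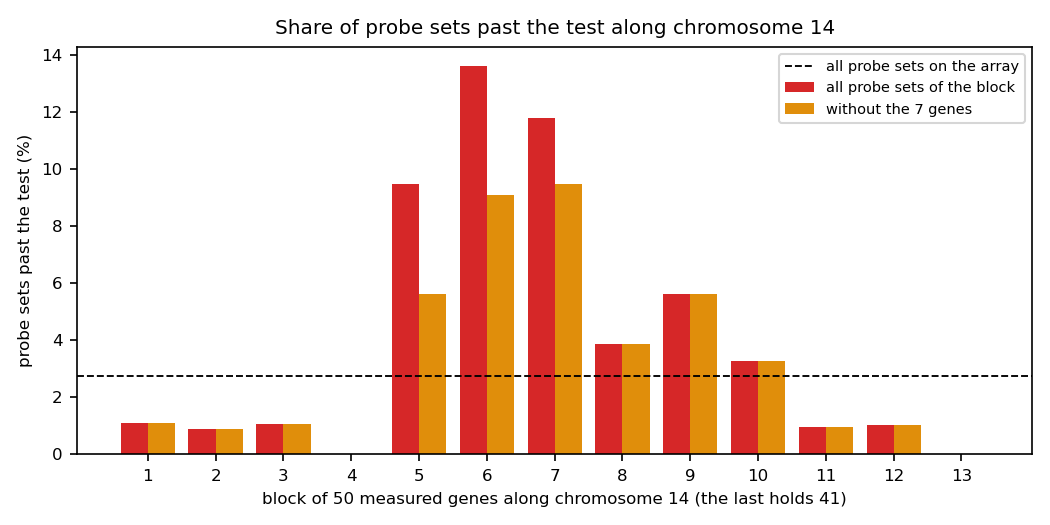
Share of probe sets past the limma test (y axis, percent) in consecutive blocks of 50 measured genes along chromosome 14 (x axis; the last block holds 41), with all probe sets in red and without those of the 7 genes in orange; the dashed line is the 2.74% of all probe sets on the array. Blocks 5, 6 and 7, which hold the members, have the highest shares; without the members blocks 6 and 7 do, and block 5 equals block 9 at 5.62%.

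Known partners and relatives of the members were measured by 109 probe sets of 63 genes. Of these probe sets 0 passed the limma test, where 2.74% of all probe sets did. The unequal-variance test also called 0, but it called only 166 of all 45037 probe sets, so little is read from this. With the replicate number as a block in the limma fit, 3 of the 109 passed, beside 2017 of all probe sets. They were 1 probe set each of Ppp1r3c (0.55), Pygm (0.57) and Chd9 (-0.37), so the 0 depends on the fit. At an unadjusted p under 0.05 there were 20 of the 109, beside 8332 of all 45037 probe sets. Of the 63 genes, 7 lie in the stretch itself. Their median difference was 0.00, with a range of -0.58 to 0.57. Among 8 measured cilium partners of Rpgrip1, its binding partner Rpgr differed by 0.23 (limma adjusted p = 0.285). Sdccag8, with the smallest p of this list, differed by -0.19 at one probe set (limma adjusted p = 0.276) and by 0.09 at each of the others. Among ribonuclease relatives and ligands of Ang, the smallest p belonged to the growth factor receptor Egfr. It differed by -0.31 (limma adjusted p = 0.131) in one probe set and 0.31 in another. The remaining Egfr probe sets differed by -0.08 to 0.11 with overlap. The angiogenin receptor Plxnb2 differed by 0.27, the ribonuclease inhibitor Rnh1 by -0.03, Ang3 by -0.26 near background and Ang2 by -0.09.

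In the lists around the other members the gene with the smallest p was Mdm2, the ubiquitin ligase of p53, for Ttc5 (-0.27 at one probe set and 0.22 at another, limma adjusted p = 0.141 and 0.167). For Ccnb1ip1 it was the meiotic mismatch gene Msh5 (-0.22, limma adjusted p = 0.321), and for Chd8 its relative Chd9 (0.31 and -0.37 at 2 probe sets, limma adjusted p = 0.148 and 0.161). For Ppp1r3e it was the glycogen synthase Gys1, which differed by 0.46 without overlap at one probe set (limma adjusted p = 0.0965) and by 0.07 with overlap at the other. For Ap5m1 it was the AP-5 subunit Ap5s1, which differed by 0.26 without overlap at one probe set (limma adjusted p = 0.146) and by 0.07 with overlap at the other.

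Photoreceptor and pineal markers were read beside Rpgrip1, since photoreceptors are its best known site. Of 9 such genes 7 were measured, 0 passed, and all 7 differences were below 0. Their mean was 6.16 to 6.27 on daDREAM arrays and 6.26 to 6.47 on control arrays. Pde6b, the rod phosphodiesterase, read 5.89 to 6.31 on daDREAM arrays and 6.40 to 6.52 on control arrays, Gnat1 and Rcvrn were near background on every array, and the part of these markers in the Rpgrip1 result was not tested. Beside Ang, which liver secretes, 3 of 4 hepatocyte markers were measured and 0 passed, and their mean was 6.86 to 9.01 on daDREAM arrays and 6.59 to 8.36 on control arrays. The albumin gene Alb was near background on every array, at 5.71 to 5.84 on daDREAM arrays and 5.78 to 5.91 on control arrays. The apolipoprotein gene Apoa1 read 7.13 to 7.27 on daDREAM arrays and 7.23 to 7.35 on control arrays. The transthyretin gene Ttr was high on daDREAM replicate 1 (14.07) and control replicate 1 (11.96), against 6.58 to 8.59 on the other arrays. Ttr thus made the upper ends of the list mean, which is not read as a level of hepatocyte RNA. The part of these markers in the Ang result was not tested.

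Among genes that are not members, with provisional names such as Gm26782 left out, the 3 most like Rpgrip1 and the 3 most like Ang lay on other chromosomes. Likeness was measured by the Pearson correlation of log2 values over the 8 arrays, which fall into the 2 groups, so that the coefficient serves to order probe sets and carries no p. Closest to Rpgrip1 1421144_at were Ndel1 on chromosome 11 (0.994), Iqgap1 on chromosome 7 (0.994) and Atp2c1 on chromosome 9 (0.993), with differences of -1.90, -0.82 and -1.77. Closest to Ang 1438936_s_at were Trappc13 on chromosome 13 (0.992), Qrich1 on chromosome 9 (0.991) and Ssbp2 on chromosome 13 (0.991), with differences of -0.95, -2.39 and -4.01. Each value is that of the most alike probe set of its gene, not of the gene as a whole. Trappc13 was near background in both groups (4.64 and 5.59). Ndel1 (5.14), Atp2c1 (4.50) and Ssbp2 (4.43) were near background in daDREAM ganglia.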

How the data were processed

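RNA of trigeminal ganglia from 4 daDREAM transgenic and 4 control samples was hybridised to 8 arrays. The deposited log2 values were made by the authors with RMA (affy, version not given), as the submitters' processing notes state. RMA corrects background, quantile-normalizes over arrays and summarises each probe set. Differences are therefore relative to the average gene. Of 45101 probe sets, 64 Affymetrix controls were left out. The platform annotation gave 34945 probe sets a single symbol, 932 several and 9160 none. RefSeq (GRCm38.p6) gave gene order and promoters; the build behind the array annotation is not given in the sources, and gene coordinates are not printed. All 45037 probe sets were fitted across the array with limma 3.58.1 in R 4.3.3 (two-sided, Benjamini-Hochberg adjustment over all of them), after the fit was tested on simulated data. Figures were drawn with matplotlib 3.10.9. The members and lists were chosen with earlier results of these data known. Named are all members, genes of the stretch past the test, the nearest measured genes, the gene with the smallest p in each partner list and the 3 non-member genes most like Rpgrip1 and Ang, leaving out provisional names. Rpgr, Plxnb2, Rnh1, Ang2, Ang3, Pde6b, Gnat1, Rcvrn, Alb, Apoa1, Ttr, Aqp4 and Gfap were named after their values were seen. The number of arrays limits the precision.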

Additional observations from a re-analysis of the deposited data

Results flagged for a closer look

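In 4 of 58 groups of 4 arrays, 1 array stood apart from the other 3 by more than Dixon's criterion allows, where chance gives about 1 in 20. For Rpgrip1 1421144_at it was control replicate 4 at 10.89, beside 10.63 to 10.67. For Ttc5 1460079_at it was control replicate 4 at 6.15, beside 5.87 to 5.89. For Chd8 1457712_at it was control replicate 3 at 7.26, beside 6.87 to 6.91. For Slc7a8 1417929_at it was control replicate 2 at 7.61, beside 7.41 to 7.42. Control replicates 3 and 4 carried Xist signal.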

How the results depend on the processing

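The 11 member probe sets past the test all passed under 17 of 21 alternatives, among them each array left out and renewed quantile normalization. Since the members were chosen by large differences in these same arrays, such passes were to be looked for and are no evidence for the differences. The exceptions were the unequal-variance test (3), the brightest probe set of each gene (7 of 7 genes, all with a difference of at least 0.5 in size), probe sets with a mean of 6 or more (8 of 11 tested) and leaving out the arrays brightest for Gh (9). The choice by brightness and by a mean of 6 or more used the arrays of both groups. Rpgrip1 1421144_at and Ang 1438936_s_at were the brightest of their genes in control ganglia but not in daDREAM ganglia. This Ang probe set, at 4.85 in daDREAM ganglia, reached a mean of 6 only through its control arrays. For Rpgrip1 and Ang these settings thus rested on the high control values and are no separate check. No difference of a separated member turned its sign. Leaving out arrays could not turn it, since the groups of these probe sets do not overlap, so nothing is read from this. Of all probe sets, 1236 passed, and 166 did with the unequal-variance test, 621 at an adjusted p under 0.01, 364 of 18193 genes by the brightest probe set, 392 without the arrays brightest for Gh, 649 without those brightest for Acta1, 760 without those brightest for 18S, and 755 to 1271 with each array left out in turn. In the same order of settings the 10 of the stretch became 1, 5, 5, 2, 6, 6 and 5 to 8, and the 9 of the flanks 1, 2, 3, 2, 2, 3 and 2 to 9; without the arrays with female signal they were 5 and 3. Renewed quantile normalization gave 7 in the stretch, 4 higher and 3 lower. With the replicate number as a block, 2017 probe sets passed and 3 of the partners (Ppp1r3c, Pygm and Chd9); 0 to 1 partners passed with each array left out. Same-numbered arrays did not deviate together in every pair, with correlations of 0.251, 0.015, 0.298 and 0.336 for replicates 1 to 4. Arrays of different number correlated at -0.268 to 0.274. Replicates 3 and 4 correlated best with their own number, and replicates 1 and 2 did not. The numbers were therefore not taken as pairs in the main fit, but pairing is not excluded.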
